A study of Mus musculus with 12 samples.

Results

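The 39 genes described here encode the proteins that bring fatty acids into heart muscle cells and oxidize them. They were taken by gene symbol from a table of 55401 genes; each symbol matched 1 gene, and all 39 were among the 15764 genes with enough counts to be tested. By step they are 6 genes of uptake and activation, 6 of the carnitine shuttle, 14 of mitochondrial beta-oxidation, 3 of electron transfer, 4 of peroxisomal oxidation, 3 thioesterases, and a last group of 3 with Mlycd and Acacb, which set the level of malonyl-CoA, and the uncoupling protein gene Ucp3. The tissue was mouse left ventricle, measured by RNA sequencing in 12 libraries, 3 in each of 4 groups. These were hearts of mice with the Prkca T497A substitution after TAC (transverse aortic constriction), the same genotype after a sham operation, wild type hearts after TAC, and wild type hearts after a sham operation. TAC narrows the aortic arch around a needle, here of 27 gauge, and loads the left ventricle with pressure. All mice were operated on at 10 weeks of age and the tissue was taken 5 weeks later, at 15 weeks. Prkca encodes protein kinase C alpha, and T497A replaces a threonine of its activation loop by alanine. The sources used here give neither the zygosity of the substitution nor the sex of the mice. The design sets TAC against sham in each genotype, and asks whether the response of these genes to pressure overload depends on the substitution.

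The adult heart draws most of its energy from fatty acids. These cross the cell membrane through carriers, are bound to coenzyme A, pass into mitochondria as carnitine esters, and are shortened there in a cycle of dehydrogenation, hydration, a second dehydrogenation and thiolysis. The electrons go to the respiratory chain through the electron transfer flavoprotein. Lower expression of this pathway is a known feature of the pressure-loaded and failing heart, and the nuclear receptors of the PPAR and ERR families are known activators of its genes.

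Totals ran from 36862004 to 46898344 counts per library. Levels are given in CPM, the usual depth-scaled count unit, with TMM factors between libraries. Prkca itself averaged 53.6 ± 0.88 CPM in T497A TAC, 44.3 ± 6.14 in T497A sham, 57.3 ± 6.45 in wild type TAC and 47.8 ± 8.19 in wild type sham libraries (SD, n = 3 each), which does not check the genotype labels, since a substitution need not change a transcript's count. The labels name cardiomyocytes as the cell type. All 16 cardiomyocyte markers were tested, but so were all 10 markers each of fibroblasts, endothelium and macrophages, and the protocols describe no sorting of cells. Of the adipocyte markers, which matter for lipid genes, Adipoq stayed at or under 0.258 CPM and Plin1 at or under 0.455 CPM in every group mean, while Fabp4, which endothelium also expresses, lay between 323 and 362 CPM.

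After TAC in T497A hearts 1 of the 39 genes, the fatty acid transporter Slc27a1, fell past the threshold, and 38 of the 39 estimates were below 0. In wild type hearts 33 of the 39 fell, none rose, and 6 did not pass the test. The 39 genes together took up 15271, 13298 and 14476 CPM in the T497A TAC libraries, 16990, 17736 and 17510 in T497A sham, 12025, 11143 and 10819 in wild type TAC, and 17146, 17250 and 17050 in wild type sham. The 3 wild type TAC libraries were thus the lowest of the 12, the 3 T497A TAC libraries lay between them and the sham libraries without overlap, and the sham libraries of both genotypes ran together. As a median over the 39 genes, the log2 level relative to the wild type sham mean was -0.21, -0.39 and -0.27 in T497A TAC, -0.06, 0.02 and 0.03 in T497A sham, -0.62, -0.65 and -0.73 in wild type TAC, and 0.03, 0.02 and -0.03 in wild type sham.

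**Figure D1:**
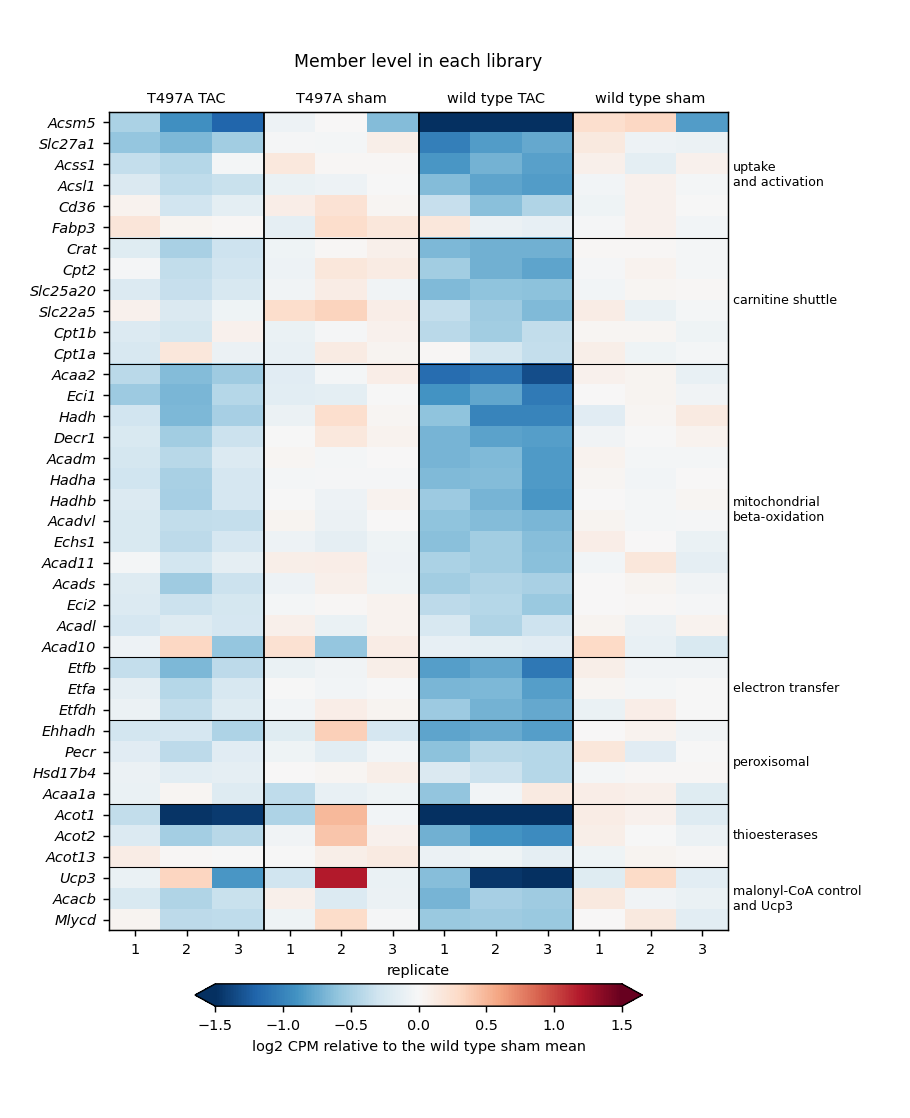
Level of each of the 39 genes (down the page, grouped by step) in each of the 12 libraries, as log2 CPM relative to the gene's mean in wild type sham libraries; blue is lower, red is higher, and the scale stops at 1.5 in either direction. The wild type TAC columns are blue for nearly every gene (library medians -0.62 to -0.73), the T497A TAC columns are paler (-0.21 to -0.39), and both sets of sham columns are close to white.

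In a fit over all 15764 genes with edgeR's quasi-likelihood test and Benjamini-Hochberg adjustment (threshold 0.05), 1 of the 39 genes was lower after TAC in T497A hearts and none was higher, beside 0.0507% and 0.0634% of all genes. At an unadjusted p under 0.05, 29 of the 39 were lower, beside 5.66% of all genes, and none was higher. DESeq2 called 15 lower and limma-voom 1, and neither called a member higher. Over all genes DESeq2 called 284 and limma-voom 13, against 18 in the edgeR test. The median log2 fold change was -0.29 over the 39 genes and 0.01 over all genes, and 38 estimates were below 0. The T497A TAC libraries lay below the T497A sham libraries without overlap for 25 of the 39, and for 7.68% of all genes. Library totals in place of TMM factors gave a median of -0.22 over the 39 genes and 0.08 over all, with 86.4% of the calls higher beside 55.6% with TMM, and the summed counts of the 16 cardiomyocyte markers as library size gave -0.19 and 0.11, with 87.5% of the calls higher. The count was 4 without T497A TAC replicate 1 and 2 without wild type TAC replicate 2. It was 0 without T497A TAC replicate 2, any 1 of the 3 T497A sham libraries, wild type TAC replicate 1 or 3, or wild type sham replicate 3.

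In wild type hearts 33 of the 39 genes were lower after TAC and 0 were higher, beside 12.6% and 12.3% of all genes. The members were chosen with earlier results of these data known. Counts beside all genes, here and in the other comparisons, are therefore description and no independent test of the list. No member was higher at an unadjusted p under 0.05 or with DESeq2 or limma-voom either. The median log2 fold change was -0.67 over the 39 genes and 0.01 over all tested genes, and all 39 estimates were below 0. The wild type TAC libraries lay below the wild type sham libraries without overlap for 35 of the 39, and for 20.7% of all genes. Among the 33 that fell, 22 fell past 1.5-fold and 3 past 2-fold: Acsm5, Acot1 and Acaa2. In a bulk sample, fewer cells of a type and less RNA per cell cannot be told apart.

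The scale moved these counts too. With library totals the median of all genes after TAC in wild type moved to 0.20, the share of calls that were higher went to 80.1% beside 49.4% with TMM, and 28 of the 39 fell, with a median of -0.48. With cardiomyocyte marker totals the median of all genes was also 0.20 (79.7% of calls higher), 24 of the 39 fell and their median was -0.47. Relative to all genes the members' median was -0.68 on each of the 3 scales. A change of scale shifts all genes by about the same amount, so this value could hardly differ and is no check of the fall. The wild type calls of Cpt1b, Slc22a5, Acadl, Hsd17b4 and Pecr were lost on both of these other scales, and those of Cd36, Acads, Eci2 and Mlycd with cardiomyocyte marker totals alone.

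**Figure D2:**
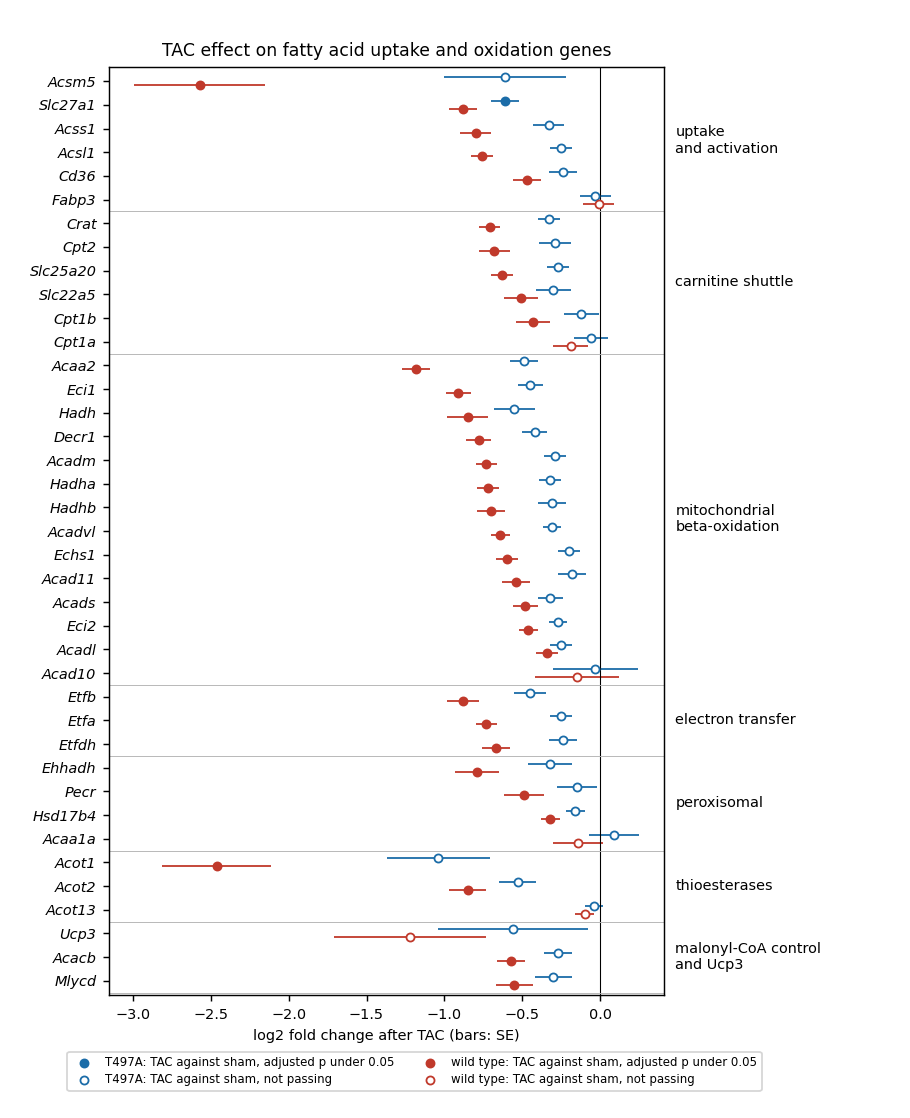
Log2 fold change after TAC (horizontal axis, bars SE) of each of the 39 genes in T497A (blue) and in wild type (red), grouped by step; filled points passed an adjusted p of 0.05 and open points did not. In 38 of the 39 genes the T497A estimate is nearer to 0 than the wild type estimate, and Slc27a1 is the only filled blue point.

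Markers of cell types moved with TAC as well. In T497A no macrophage, fibroblast, endothelial or cardiomyocyte marker passed after TAC in the edgeR test or limma-voom, while at an unadjusted p under 0.05 there were 4 macrophage and 5 fibroblast markers higher and 6 cardiomyocyte markers lower, and DESeq2 called 1, 2 and 1 of these. In wild type 9 of the 10 macrophage markers rose, 6 of the 10 fibroblast markers and 1 of the 10 endothelial markers, and of the 16 cardiomyocyte markers 5 fell and 1 rose. The summed fibroblast markers took 2517 to 2998 CPM in T497A TAC, 2013 to 2494 in T497A sham, 3648 to 4087 in wild type TAC and 2003 to 2133 in wild type sham. The summed macrophage markers took 249 to 332 CPM in T497A TAC, 211 to 266 in T497A sham, 313 to 401 in wild type TAC and 185 to 226 in wild type sham. Cardiomyocyte markers summed to 53573 to 60842 CPM in T497A TAC, 57822 to 64267 in T497A sham, 50494 to 57517 in wild type TAC and 61850 to 62648 in wild type sham. The mitochondrial genome's share of counts was 24.6% to 26.1% in T497A TAC, 28.3% to 30.9% in T497A sham, 19.6% to 20.9% in wild type TAC and 25.1% to 29.0% in wild type sham. Their part in the members' change was not tested.

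Whether the response to TAC differed between genotypes was tested by the interaction, in which the wild type log2 fold change after TAC is subtracted from that of T497A. It passed for 4 members, all positive, beside 0.894% of all genes with a positive and 0.679% with a negative interaction: Acsl1, Acadm, Acaa2 and Etfa. At an unadjusted p under 0.05 it was positive for 22 of the 39, beside 8.89% of all genes, and negative for none. DESeq2 gave 14 positive calls and limma-voom 4, and neither gave a negative one. Over all genes DESeq2 called 848, of which 431 were positive, and limma-voom 224, of which 126 were positive, against 248 calls in the edgeR test. The median interaction was 0.35 over the 39 genes and 0.00 over all genes. These 4 calls were close to the threshold. None passed with library totals or cardiomyocyte marker totals (medians 0.24 and 0.27 over the 39 genes, -0.11 and -0.08 over all genes, 22.0% and 34.0% of calls positive beside 56.9% with TMM). The number of members called was 0 without T497A TAC replicate 1, T497A TAC replicate 3, T497A sham replicate 2, wild type TAC replicate 3, wild type sham replicate 1 or wild type sham replicate 3, and 15 without T497A TAC replicate 2. It was 1 without T497A sham replicate 3, and 2 without T497A sham replicate 1, wild type TAC replicate 1 or wild type sham replicate 2.

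Directly between genotypes after TAC, 22 of the 39 genes were higher in T497A and none lower, beside 4.64% and 4.06% of all genes. At an unadjusted p under 0.05 the counts were 31 and 0, and the share of all genes was not counted there. DESeq2 gave 26 and 0 and limma-voom 20 and 0. Over all genes DESeq2 called 1990, of which 1049 were higher, and limma-voom 1465, of which 711 were higher. The median log2 difference was 0.37, all 39 estimates were above 0, and the T497A TAC libraries lay above the wild type TAC libraries without overlap for 31 of the 39, and for 14.4% of all genes. This comparison shares the wild type TAC libraries with that of TAC against sham in wild type, so the counts of the pair are not independent. Markers of cell types differed between genotypes after TAC too. In the edgeR test 3 fibroblast, 2 macrophage and 1 endothelial marker were lower in T497A, and 1 cardiomyocyte marker was higher and 1 lower. For the interaction 2 fibroblast markers passed, both negative. The part of cell types in the members' differences was not tested. With library totals 10 of the 39 were higher (median 0.23, all genes -0.13, 17.0% of calls higher beside 53.3% with TMM) and with cardiomyocyte marker totals 5 (median 0.30, all genes -0.06, 32.4% of calls higher). Leaving out T497A TAC replicate 1, T497A TAC replicate 3 or wild type TAC replicate 3 left 11, 12 and 10 calls, each in its own fit. After sham surgery 0 of the 39 genes differed between genotypes, beside 0.0254% of all genes higher in T497A and 0.0% lower. Slc22a5 alone had an unadjusted p under 0.05 there (log2 difference 0.24), DESeq2 and limma-voom called none, and the 39 estimates ran from -0.22 to 0.42.

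Uptake and activation begin with Cd36, the membrane carrier of long-chain fatty acids, Slc27a1, a transport protein with acyl-CoA synthetase activity, Fabp3, the heart's cytosolic fatty acid binding protein, and Acsl1, the main long-chain acyl-CoA synthetase of heart muscle. In T497A 1 of the 6 genes fell after TAC (median -0.29) and in wild type 5 did (median -0.78), and after TAC 4 were higher in T497A than in wild type. Acsl1 (ENSMUSG00000018796.13, chromosome 8, positions 46471037 to 46536051 of GRCm38) had 1138, 1021 and 1048 CPM in T497A TAC, 1236, 1255 and 1317 in T497A sham, 842, 766 and 740 in wild type TAC, and 1289, 1387 and 1299 in wild type sham libraries. The wild type TAC libraries were the lowest, and every T497A TAC library lay above each of them and below each sham library. Its log2 fold change after TAC was -0.25 ± 0.07 SE in T497A (adjusted p = 0.19) and -0.76 ± 0.07 in wild type (adjusted p = 1.14e-05), and the interaction was 0.51 ± 0.10 (adjusted p = 0.0246; all adjusted p-values of single genes are from edgeR's quasi-likelihood fit). Slc27a1 (ENSMUSG00000031808.7, chromosome 8, positions 71568882 to 71587302) had 63.6, 59.2 and 65.9 CPM in T497A TAC, 93.8, 92.9 and 101 in T497A sham, 46.4, 52.9 and 55.5 in wild type TAC, and 105, 89.6 and 89.5 in wild type sham libraries. The TAC libraries of each genotype lay below all sham libraries, and the gene fell in both: 1.52-fold in T497A (-0.61 ± 0.09, adjusted p = 0.0318) and 1.84-fold in wild type (-0.88 ± 0.09, adjusted p = 1.67e-05), with an interaction of 0.27 ± 0.12 that did not pass (adjusted p = 0.276). The T497A call of Slc27a1 was kept in 5 of the 12 fits without 1 library and lost in the others (adjusted p up to 0.137), and it was also lost with cardiomyocyte marker totals (-0.50, adjusted p = 0.0507) and with only the groups compared (-0.61, adjusted p = 0.0528).

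Cd36 fell 1.39-fold after TAC in wild type (-0.47 ± 0.09), a call lost with cardiomyocyte marker totals (-0.28, adjusted p = 0.142 in edgeR's quasi-likelihood fit). Acss1, which activates acetate in mitochondria, fell 1.74-fold (-0.80 ± 0.10). Acsm5, a medium-chain acyl-CoA synthetase gene, had the largest fall of all 39, 5.93-fold, at a low level: 5.33 ± 1.35 CPM in T497A TAC, 8.17 ± 1.86 in T497A sham, 1.6 ± 0.882 in wild type TAC and 9.48 ± 3.62 in wild type sham libraries (SD, n = 3 each). After TAC it was 3.32-fold higher in T497A than in wild type (log2 difference 1.73 ± 0.42, adjusted p = 0.0307 in edgeR's quasi-likelihood fit), a call kept in 7 of the 12 fits without 1 library. Fabp3 stood apart. It had the highest level per length of the 39 in all 4 groups (1400 CPM per kb of exon in T497A TAC, 1430 in T497A sham, 1320 in wild type TAC and 1320 in wild type sham), and its log2 fold change was -0.03 ± 0.10 in T497A and -0.01 ± 0.10 in wild type. About 26.0% of its 75-base windows also occur in other genes, among them a pseudogene, so some of its reads may have been left out or shared.

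In the carnitine shuttle, Cpt1a and Cpt1b load acyl groups onto carnitine at the outer mitochondrial membrane, and Slc25a20 carries the esters across the inner one. Cpt2 transfers the acyl group back to coenzyme A, Crat moves short acyl groups between coenzyme A and carnitine in either direction, and Slc22a5 imports carnitine into the cell. In T497A none of the 6 genes passed after TAC (median -0.28, 4 at an unadjusted p under 0.05), and in wild type 5 fell (median -0.57). Slc25a20 had 155, 141 and 151 CPM in T497A TAC, 172, 194 and 172 in T497A sham, 113, 118 and 117 in wild type TAC, and 174, 183 and 181 in wild type sham libraries. Crat had 436, 354 and 401 CPM in T497A TAC, 474, 504 and 521 in T497A sham, 310, 302 and 300 in wild type TAC, and 501, 501 and 485 in wild type sham libraries. In both genes the 3 wild type TAC libraries lay close together below all others, and the T497A TAC libraries lay between them and the sham libraries. Slc25a20 had a log2 fold change of -0.27 ± 0.07 in T497A, against a 1.54-fold fall in wild type (-0.63 ± 0.07). Crat had -0.33 ± 0.07 in T497A, against a 1.63-fold fall in wild type (-0.71 ± 0.07). Their interactions, 0.35 ± 0.09 and 0.37 ± 0.10, missed the threshold (adjusted p = 0.0706 and 0.0826 by the quasi-likelihood test of edgeR). Cpt2 fell 1.6-fold in wild type. Slc22a5 fell 1.42-fold there, a call lost with library totals (-0.32, adjusted p = 0.0542) and cardiomyocyte marker totals (-0.31, adjusted p = 0.127). After TAC Cpt2, Slc25a20, Slc22a5 and Crat were each higher in T497A. Of the 12 fits without 1 library, 10 kept this call for Cpt2, 8 for Slc22a5 and all 12 for Slc25a20 and Crat. The T497A estimate of Slc22a5 was also above wild type after sham (log2 difference 0.24 ± 0.11, not called). Its interaction was 0.20 ± 0.15 and did not pass.

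The entry enzymes had the smallest wild type estimates of the 6 genes. Cpt1a, the isoform of liver and of the developing heart, had 50.7, 67.3 and 56.3 CPM in T497A TAC, 55.4, 65.0 and 61.4 in T497A sham, 60.4, 50 and 46.8 in wild type TAC, and 63.6, 57.3 and 58.7 in wild type sham libraries. Its groups overlapped in both genotypes (-0.06 ± 0.11 in T497A and -0.19 ± 0.11 in wild type). Cpt1b, the muscle isoform, had 10.8 ± 1.33 CPM in T497A TAC, 11.7 ± 0.635 in T497A sham, 8.74 ± 0.464 in wild type TAC and 11.8 ± 0.423 in wild type sham libraries (SD, n = 3 each), a 1.34-fold fall in wild type (-0.43 ± 0.11, adjusted p = 0.0106 in edgeR's quasi-likelihood fit). Its level per length was below that of Cpt1a in every group, 3.49 against 7.83 CPM per kb in wild type sham. That call was lost with library totals (-0.24, adjusted p = 0.115) and cardiomyocyte marker totals (-0.24, adjusted p = 0.177). Moreover, 81.4% of its exon bases also belong to Gm44502, a gene annotated on the same strand that was listed at 0 in all 12 libraries. How reads that fall in both genes were counted is not given in the sources used here, so the level of Cpt1b is uncertain, and its fold change rests on whichever reads were kept.

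Mitochondrial beta-oxidation was the largest group. After TAC none of its 14 genes passed in T497A (median -0.31, 12 at an unadjusted p under 0.05) and 13 fell in wild type (median -0.67), and 9 of the 14 were higher in T497A than in wild type after TAC. Acaa2, the thiolase that releases acetyl-CoA (ENSMUSG00000036880.10), had 516, 436 and 473 CPM in T497A TAC, 605, 670 and 729 in T497A sham, 309, 323 and 271 in wild type TAC, and 714, 704 and 629 in wild type sham libraries. The wild type TAC libraries lay below all others, and the T497A TAC libraries between them and the sham libraries. Its log2 fold change was -0.49 ± 0.09 in T497A (adjusted p = 0.061) and -1.18 ± 0.09, or 2.27-fold, in wild type (adjusted p = 5.45e-06), with an interaction of 0.69 ± 0.13 (adjusted p = 0.0234, edgeR's quasi-likelihood test). Acadm, the medium-chain acyl-CoA dehydrogenase gene (ENSMUSG00000062908.12, chromosome 3, positions 153922357 to 153944632), had 1172, 1055 and 1225 CPM in T497A TAC, 1436, 1377 and 1413 in T497A sham, 870, 891 and 784 in wild type TAC, and 1463, 1384 and 1378 in wild type sham libraries. Again the 3 T497A TAC libraries lay between the wild type TAC and the sham libraries. Its log2 fold change was -0.29 ± 0.07 in T497A and -0.73 ± 0.07 in wild type, with an interaction of 0.44 ± 0.10 (adjusted p = 0.0473). Eci1, an isomerase for unsaturated fatty acids, had 143, 129 and 155 CPM in T497A TAC, 186, 188 and 207 in T497A sham, 112, 121 and 100 in wild type TAC, and 209, 214 and 201 in wild type sham libraries. Its groups lay in the same order, without overlap. Its log2 fold change was -0.45 ± 0.08 in T497A, against a 1.88-fold fall in wild type (-0.91 ± 0.08), and its interaction of 0.47 ± 0.12 missed the threshold (adjusted p = 0.0629).

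The acyl-CoA dehydrogenases take chains of different lengths, and their falls in wild type differed. Acadvl, for very long chains, fell 1.56-fold (-0.64 ± 0.06), Acadm 1.66-fold, Acads, for short chains, 1.40-fold (-0.48 ± 0.08) and Acadl, for long chains, 1.26-fold (-0.34 ± 0.07). The call of Acadl was lost with library totals (-0.15, adjusted p = 0.178) and cardiomyocyte marker totals (-0.14, adjusted p = 0.28), and that of Acads with cardiomyocyte marker totals (-0.30, adjusted p = 0.0636). Acadl also had the T497A estimate nearest to that of wild type among the 33 genes (-0.25 ± 0.07, 73.1% of the wild type log2 fold change). Acad11 fell 1.45-fold, while Acad10 lay at 1.5 to 2.8 CPM in every library and gave no call (-0.03 ± 0.27 in T497A and -0.15 ± 0.27 in wild type). Of the exon bases of Acadvl 42.9% also lie in Dvl2 on the opposite strand. Dvl2 was at 3.83 to 4.06 CPM in the group means against 291 to 454 CPM of Acadvl. Since the use of strand is not given, reads in both genes may have been left out, and the level of Acadvl is uncertain. Hadha and Hadhb encode the subunits of the trifunctional protein, which carries out the last steps for long chains. Hadha had -0.32 ± 0.07 in T497A and fell 1.64-fold in wild type (-0.72 ± 0.07). Hadhb had -0.31 ± 0.09 in T497A and fell 1.62-fold in wild type (-0.70 ± 0.09). Hadh, the short-chain hydroxyacyl-CoA dehydrogenase, fell 1.80-fold, Decr1, an accessory reductase for unsaturated chains, 1.71-fold, the enoyl-CoA hydratase gene Echs1 1.51-fold and Eci2, a further isomerase, 1.38-fold, a call lost with cardiomyocyte marker totals (-0.27, adjusted p = 0.0583). Over the 33 genes that fell in wild type, the T497A log2 fold change was between 24% (Acsm5) and 73.1% (Acadl) of the wild type one, with a median of 45.2%. The 33 were picked by passing in wild type, which by itself tends to lower this share. The 6 genes that did not pass there are left out of it.

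**Figure D3:**
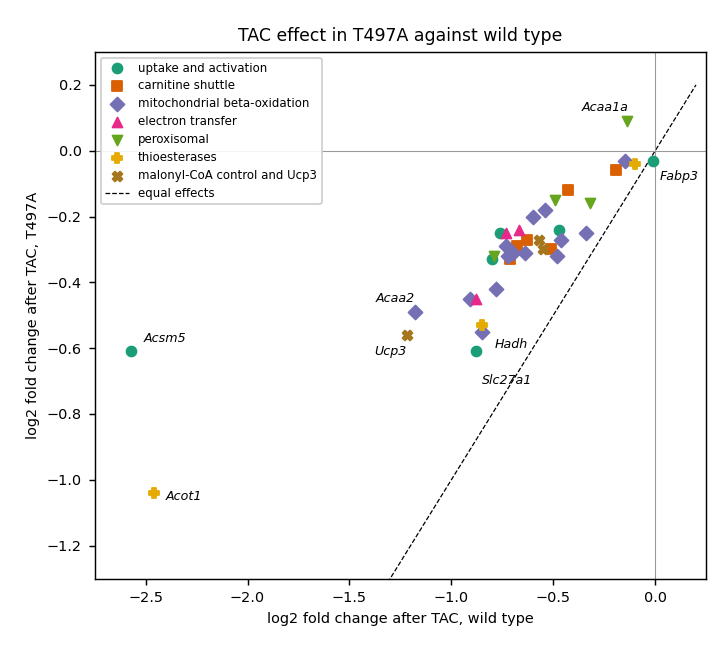
Log2 fold change after TAC in T497A (vertical axis) against that in wild type (horizontal axis) for the 39 genes, with a marker for each step; the dashed line marks equal effects. All points but Fabp3 lie above the line, Acsm5 and Acot1 are far to the left (-2.57 and -2.46 in wild type), and Slc27a1 lies closer to the line than most genes with a fall of its size.

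The order of the genes was similar in both genotypes. Across the 39 genes the log2 fold changes after TAC in T497A and in wild type had a Pearson r of 0.86 and a Spearman rho of 0.89, and across all 15764 genes 0.42 and 0.47. These are correlations across genes, which are not independent replicates, and the comparisons share no library but do share 1 fit and its scaling. The wild type log2 fold change showed little relation to the level per length in wild type sham across the 39 genes (r 0.25, rho 0.00).

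**Figure D4:**
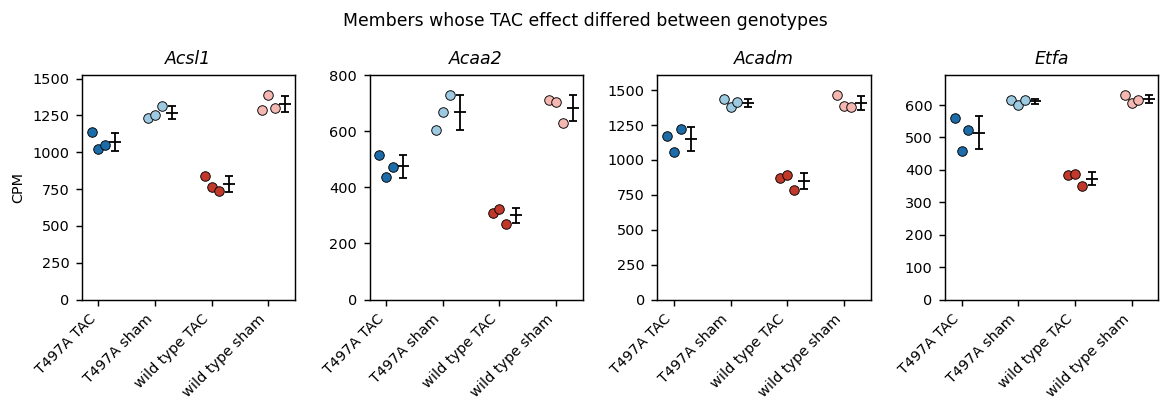
CPM of Acsl1, Acaa2, Acadm and Etfa in each library (points), with the mean ± SD of each group of 3 beside them; the vertical axes start at 0. In each gene the T497A TAC libraries (left) sit between the wild type TAC libraries and both sets of sham libraries, without overlap.

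Start-site sequences of these genes are shown because they moved together and because PPAR and ERR receptors bind variants of the core motif AGGTCA. RefSeq promoter windows on GRCm38.p6, from 250 bases before to 50 after a start site, were at hand for 33 of the 39 genes (36 windows). On either strand, the core motif AGGTCA was in 7 of these 36 windows (19.4%) and in 16.3% of all 32851 windows: those of Acacb, Acadm, Acadvl, Cd36, Cpt1a, Echs1 and Ucp3. The ERR element TNAAGGTCA, which contains the core motif, was in 0 of the 36 and in 1.28% of all windows, and the PPAR direct repeat, AGGTCA followed by AGGTCA on the same strand with 1 base between, was in 0 and in 0.0396%. These are exact letters in a short window, and a match is no evidence of binding. Cpt1a and Ucp3 hold the core motif too and were not called after TAC in either genotype in edgeR's quasi-likelihood fit. Of the genes with the motif, only Acadm, Acadvl and Cd36 are printed, as examples. The stretches below, 5′ to 3′ on the gene's strand, are those around the core motif of Acadm (chr3:153944814-153944893, minus strand, motif at position -249 with the start base as 0), Acadvl (chr11:70015473-70015552, minus strand, position -87) and Cd36 (chr5:17836067-17836146, minus strand, position -228), with AGGTCA or its reverse complement in capitals. The last is the 85-base gap between the GENCODE M21 gene bounds of Hadha and Hadhb (chr5:30155163-30155247, plus strand), which lie head to head. The start sites behind the RefSeq windows lie further apart, inside those bounds. The gap is 69.4% G and C and holds no core motif, and the pair changed by nearly the same amount.
Acadm: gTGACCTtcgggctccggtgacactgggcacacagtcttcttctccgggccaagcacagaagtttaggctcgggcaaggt
Acadvl: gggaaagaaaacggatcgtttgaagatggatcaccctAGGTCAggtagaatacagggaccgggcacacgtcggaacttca
Cd36: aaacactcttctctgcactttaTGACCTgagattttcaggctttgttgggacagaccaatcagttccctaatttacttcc
Hadha-Hadhb: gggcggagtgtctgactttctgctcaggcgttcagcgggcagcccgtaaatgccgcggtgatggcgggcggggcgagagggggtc

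Etfa and Etfb encode the subunits of the electron transfer flavoprotein, which collects electrons from the acyl-CoA dehydrogenases, and Etfdh the dehydrogenase that passes them to ubiquinone. None of the 3 genes passed in T497A (median -0.25, all 3 at an unadjusted p under 0.05), all 3 fell in wild type (median -0.73), and all 3 were higher in T497A than in wild type after TAC. Etfa (ENSMUSG00000032314.14, chromosome 9, positions 55454508 to 55512243) had 561, 459 and 524 CPM in T497A TAC, 616, 601 and 616 in T497A sham, 384, 386 and 349 in wild type TAC, and 630, 606 and 616 in wild type sham libraries. Its log2 fold change was -0.25 ± 0.07 in T497A and -0.73 ± 0.07 in wild type, with an interaction of 0.48 ± 0.10 (adjusted p = 0.0395, edgeR's quasi-likelihood test). T497A TAC replicate 2 was the lowest library of its group here, as it was for the sum of the 39 genes. Etfb had 46.1, 37.1 and 45.2 CPM in T497A TAC, 55.2, 57.1 and 63.2 in T497A sham, 33.4, 34.8 and 28.2 in wild type TAC, and 63.2, 57.4 and 57.4 in wild type sham libraries. It had -0.45 ± 0.10 in T497A, against a 1.85-fold fall in wild type (-0.88 ± 0.10), without overlap between any TAC and any sham library. Of its exon bases 58.2% also belong to Etfbl on the same strand, listed at 0 in all 12 libraries, so its level is uncertain. Etfdh fell 1.59-fold in wild type (-0.67 ± 0.09).

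Peroxisomes shorten very long chains. Ehhadh and Hsd17b4 encode their multifunctional hydratase and dehydrogenase enzymes, Acaa1a their thiolase, and Pecr a trans-2-enoyl-CoA reductase. In T497A none of the 4 genes passed (median -0.16, 2 at an unadjusted p under 0.05). In wild type 3 fell (median -0.41), and none differed between genotypes after TAC (2 at an unadjusted p under 0.05, log2 differences 0.05 to 0.47). Ehhadh had 12.1, 12.3 and 10.6 CPM in T497A TAC, 12.9, 18.7 and 12.3 in T497A sham, 8.46, 8.64 and 8.25 in wild type TAC, and 14.7, 15.1 and 14.1 in wild type sham libraries. The wild type TAC libraries were the lowest, and in T497A the groups overlapped, with 1 sham library above all others. It had -0.32 ± 0.14 in T497A, against a 1.73-fold fall in wild type (-0.79 ± 0.14). Hsd17b4 had 112, 107 and 108 CPM in T497A TAC, 119, 121 and 126 in T497A sham, 102, 94.9 and 88.3 in wild type TAC, and 117, 120 and 120 in wild type sham libraries, that is -0.16 ± 0.06 in T497A against a 1.25-fold fall in wild type (-0.32 ± 0.06). Both gaps were small but without overlap, and the wild type call was lost with library totals (-0.14, adjusted p = 0.197) and cardiomyocyte marker totals (-0.13, adjusted p = 0.357). The fall of Pecr (-0.49 ± 0.13, adjusted p = 0.0159 by the quasi-likelihood test of edgeR) was lost without wild type TAC replicate 1 (adjusted p = 0.0649) or wild type sham replicate 1 (adjusted p = 0.0786), and with library totals (-0.31, adjusted p = 0.111) and cardiomyocyte marker totals (-0.31, adjusted p = 0.137). Acaa1a, whose libraries overlapped in every comparison, had 0.09 ± 0.16 in T497A and -0.14 ± 0.16 in wild type.

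Thioesterases split acyl-CoA back into fatty acid and coenzyme A. Acot1, the cytosolic enzyme, had 5.27, 2.46 and 2.52 CPM in T497A TAC, 4.95, 9.54 and 6.64 in T497A sham, 1.75, 0.924 and 1.03 in wild type TAC, and 7.34, 7.15 and 5.95 in wild type sham libraries. Every wild type TAC library lay below every other library, and in T497A the groups overlapped. It had -1.04 ± 0.33 in T497A (adjusted p = 0.248) and fell 5.50-fold in wild type (-2.46 ± 0.35, adjusted p = 0.000393 in edgeR's quasi-likelihood fit). After TAC it was 2.76-fold higher in T497A (1.47 ± 0.35, adjusted p = 0.0248), a call kept in 9 of the 12 fits without 1 library. Acot2, the mitochondrial enzyme, had 55.9, 45.2 and 48.4 CPM in T497A TAC, 62.2, 86.0 and 67.6 in T497A sham, 39.3, 34.7 and 33.5 in wild type TAC, and 68.8, 64.1 and 61.0 in wild type sham libraries. It had -0.53 ± 0.12 in T497A, against a 1.80-fold fall in wild type (-0.85 ± 0.12), without overlap in either genotype. Acot1 and Acot2 lie near each other on chromosome 12, and 15.0% and 21.2% of their 75-base windows also occur in other genes, among them each other, so reads may have been split between them. Acot13 had 170 ± 7.12 CPM in T497A TAC, 174 ± 8.51 in T497A sham, 154 ± 3.97 in wild type TAC and 165 ± 6.02 in wild type sham libraries (SD, n = 3 each) and gave no call.

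Malonyl-CoA blocks the entry of acyl groups at the carnitine shuttle; Acacb encodes the acetyl-CoA carboxylase at the mitochondrial membrane that makes it, and Mlycd the decarboxylase that removes it. Neither passed in T497A, and both fell in wild type. Acacb had 398, 343 and 372 CPM in T497A TAC, 493, 405 and 442 in T497A sham, 288, 332 and 323 in wild type TAC, and 516, 451 and 437 in wild type sham libraries. Mlycd had 73.5, 54.3 and 54.5 CPM in T497A TAC, 68.1, 86.1 and 70.5 in T497A sham, 48.4, 49.3 and 48.4 in wild type TAC, and 71.4, 78.6 and 63.7 in wild type sham libraries. The T497A groups overlapped for Mlycd and not for Acacb. Acacb had -0.27 ± 0.09 in T497A and fell 1.49-fold in wild type (-0.57 ± 0.09), and Mlycd had -0.30 ± 0.12 in T497A and fell 1.46-fold in wild type (-0.55 ± 0.12). The fall of Mlycd was lost with cardiomyocyte marker totals (-0.36, adjusted p = 0.12). The genes of the maker and the remover of malonyl-CoA had similar estimates within each genotype. Ucp3, a mitochondrial carrier that rises with fatty acid supply in muscle, varied most: 33.2, 44.4 and 19.4 CPM in T497A TAC, 29.0, 80.9 and 33.2 in T497A sham, 22.9, 13.0 and 9.95 in wild type TAC, and 31.4, 43.6 and 31.9 in wild type sham libraries. Its wild type groups did not overlap, but the estimate of -1.22 ± 0.49 did not pass (adjusted p = 0.111, edgeR's quasi-likelihood test). It passed in the fit without T497A sham replicate 2, the library at 80.9 CPM (adjusted p = 0.0494).

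**Figure D5:**
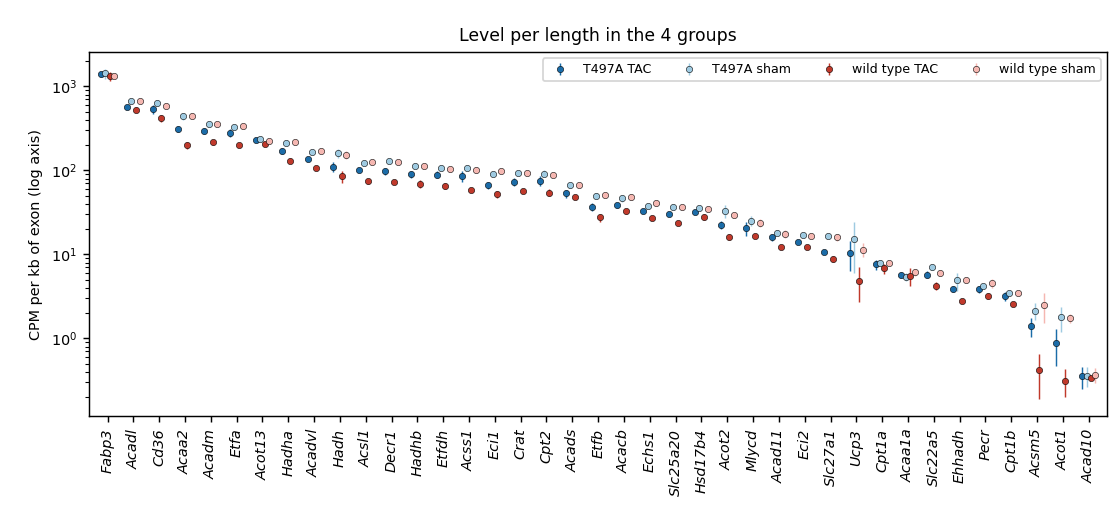
Level per length of the 39 genes (CPM per kb of exon, logarithmic axis) as mean ± SD of the 3 libraries of each group, in order of the wild type sham mean. Levels span from 1320 CPM per kb for Fabp3 to 0.372 for Acad10 in wild type sham, and the dark red points (wild type TAC) lie below the pale ones for most genes over the whole range.

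Among 63 other genes of fatty acid handling, 62 were tested. In T497A none passed after TAC with edgeR's quasi-likelihood test, DESeq2 or limma-voom (median -0.13). At an unadjusted p under 0.05, 1 was higher and 11 were lower, beside 5.66% of all genes lower. In wild type 29 fell and 5 rose (median -0.32), beside 12.6% and 12.3% of all genes, so the rises were no more frequent than among all genes. After TAC 16 were higher and 1 lower in T497A than in wild type, beside 4.64% and 4.06% of all genes. The groups are small, and single calls in them carry little weight. By group, 8 of 10 peroxisomal genes fell in wild type, 7 of 14 of uptake and activation (1 rose), 4 of 6 of mitochondrial oxidation, 5 of 14 regulators and response genes of PPAR and ERR, 2 of 7 thioesterases (1 rose), 1 of 4 of the carnitine shuttle (1 rose), 1 of 4 of malonyl-CoA control (1 rose) and 1 of 3 of ketone use (1 rose). Of all genes 0.894% had a positive and 0.679% a negative interaction call. Among these 62 genes the interaction passed for 5, all positive, each of them lost in at least 5 of the 12 fits without 1 library. These were Acsl6 (0.98 ± 0.19), a long-chain acyl-CoA synthetase, Acad9 (0.57 ± 0.12), an acyl-CoA dehydrogenase known for its role in complex I assembly, Prkaa2 (0.56 ± 0.11), the AMP-activated kinase subunit that acts on the acetyl-CoA carboxylases, Esrrg (0.46 ± 0.10), an ERR receptor, and Hsd17b10 (0.43 ± 0.09), a mitochondrial dehydrogenase, with adjusted p-values from 0.0234 (Prkaa2) to 0.0432 (Hsd17b10) in edgeR's quasi-likelihood fit. For Acad9 the sham groups differed too: it had 33.4, 30.3 and 31.4 CPM in T497A TAC, 30.3, 28.2 and 32.5 in T497A sham, 28, 26.7 and 27.8 in wild type TAC, and 42.5, 35.1 and 40 in wild type sham libraries. T497A sham lay below wild type sham without overlap (log2 difference -0.37 ± 0.08, adjusted p = 0.941), which enters the interaction, while after TAC the difference was 0.20 ± 0.08 and not called (adjusted p = 0.155).

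Esrrg had 89.4, 84.6 and 87.2 CPM in T497A TAC, 95.2, 79.7 and 84.7 in T497A sham, 62.1, 66.2 and 63.9 in wild type TAC, and 86.7, 85.8 and 90.2 in wild type sham libraries. Prkaa2 had 319, 295 and 312 CPM in T497A TAC, 313, 277 and 300 in T497A sham, 225, 213 and 249 in wild type TAC, and 307, 323 and 346 in wild type sham libraries. In both, the wild type TAC libraries lay below all others and the T497A TAC libraries ran with the sham libraries. The largest falls in wild type were those of Acot3 (-2.39 ± 0.54), a peroxisomal thioesterase at under 1 CPM, Slc25a29 (-1.52 ± 0.38), a mitochondrial carrier, and Abcd2 (-1.45 ± 0.22), a peroxisomal transporter of very long chains. The largest rises were those of Slc22a4, an organic cation carrier (1.14 ± 0.30), the synthetase gene Acsl5 (0.60 ± 0.11) and Bdh1, the first enzyme of ketone body use (0.58 ± 0.10). Slc22a4 had 8.24, 2.96 and 5.57 CPM in wild type TAC and 2.91, 2.21 and 2.50 in wild type sham libraries, and without wild type TAC replicate 1 its estimate was 0.75 and did not pass (adjusted p = 0.0718 by the quasi-likelihood test of edgeR). Slc25a29 also lost its call without wild type TAC replicate 1 or 3 (adjusted p = 0.0621 and 0.0571).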

How the data were processed

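RNA from left ventricle was sequenced single-end for 75 cycles after mRNA library preparation, per the labels' protocols. The deposited values are raw read counts for each gene. The submitters' processing notes list limma 3.50.3, Subread 1.6.3 and featureCounts, STAR 2.7.3a, Trim Galore 0.6.4 and the build mm10. Settings, annotation release, use of strand and the treatment of reads that fit several genes were not given in these sources, so counts of overlapping or near-identical genes are uncertain. Beside the members named for this above, it applies to Slc22a5, Hadhb, Acaa1a and Acad10. Of their 75-base windows 17.1%, 16.7%, 12.6% and 11.4%, in this order, also occur in other genes.

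The labels gave the groups. Every title has 1 and the same replicate number, so numbers here follow accession order and pair nothing. All libraries share 1 batch date. A further number in the titles is different for each of the 12 libraries and may identify an animal, but no label says what it is. If libraries were not separate animals, p-values would measure only a technical spread. Replicates of a group differed in their counts by a chi-square per degree of freedom of 21.89 to 60.3, so none is a copy of another.

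Genes kept by filterByExpr (minimum count 10; 15764 of 55401) entered 1 model over the 4 groups in edgeR 4.0.16 (R 4.3.3; TMM factors, robust glmQLFit, glmQLFTest). Adjustment was by Benjamini-Hochberg over all tested genes, with a threshold of 0.05, and the biological coefficient of variation was 17.2%. SEs were taken from the log2 fold change and the F statistic, as the ratio of its size to the square root of F. Alternatives were DESeq2 1.42.0, limma-voom 3.58.1, RLE factors, library totals, cardiomyocyte marker totals, no filter, no genes of the mitochondrial genome, a fit of only the groups compared, and leaving out each library. The test was checked on simulated data in which 200 genes changed, in wild type TAC alone, with the same spread for every gene. That check held no shift of scale between libraries, so it does not bear on the counts that moved with the scale.

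Positions and exon lengths are from GENCODE M21 (GRCm38), which matched 54349 of 55401 identifiers exactly. Sequences are from RefSeq (GRCm38.p6). The members, the steps, the 63 other genes and the marker lists were chosen with earlier results of these data known. Full values are given for members called in the interaction and for the 2 members of each step with the smallest p in wild type. Of the other 63 genes, those called in the interaction and the 3 largest rises and falls called in wild type are named; further members are given where their values stand out.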

Additional observations from a re-analysis of the deposited data

Results flagged for a closer look

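In 4 of the 39 genes the TAC effect differed between genotypes by the interaction test (edgeR's quasi-likelihood test, T497A minus wild type, log2): Acsl1 by 0.51, Acadm by 0.44, Acaa2 by 0.69 and Etfa by 0.48. None of these 4 passed with library totals or cardiomyocyte marker totals. The interaction also passed for 5 of the 62 other fatty acid genes tested: Acsl6 by 0.98, Acad9 by 0.57, Hsd17b10 by 0.43, Prkaa2 by 0.56 and Esrrg by 0.46. Of all genes 0.894% had a positive and 0.679% a negative call. For Acad9 the sham libraries also differed between genotypes without overlap (log2 difference -0.37, not called). In all 9 the gene fell after TAC in wild type and the difference was positive. Of the fits without 1 library, 2 of 12 kept the call of Acadm, Etfa, Acad9 and Hsd17b10, 3 that of Esrrg, 5 that of Acsl1, 6 that of Acaa2 and Acsl6, and 7 that of Prkaa2. Groups of 3 libraries were too small to look for single outlying libraries.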

How the results depend on the processing

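The count of members that fell in wild type stayed within 1.5 times under every alternative run (24 to 33 of 39 with other tools, scales and filters, 32 to 34 without 1 library). The other counts varied more. After TAC in T497A, the members called lower numbered 15 with DESeq2, 17 with no filter, 0 with cardiomyocyte marker totals, 0 with only the groups compared and 0 to 4 without 1 library, against 1; all genes called numbered 284, 331, 0 with only the groups compared and 0 to 37, against 18. For the interaction, members called numbered 14 with DESeq2, 14 with no filter, 0 with library totals, 0 with cardiomyocyte marker totals and 0 to 15 without 1 library, against 4; all genes called numbered 848, 898, 106 with cardiomyocyte marker totals and 37 to 518, against 248. Between genotypes after TAC, members called higher numbered 10 with library totals, 5 with cardiomyocyte marker totals, 14 with only the groups compared and 10 to 23 without 1 library, against 22; all genes called numbered 863 with cardiomyocyte marker totals, 887 with only the groups compared and 458 to 1476, against 1371. After sham all genes called numbered 11 with DESeq2, 2 with limma-voom, 14 with no filter and 1 to 7 without 1 library, against 4. The cause was not tested.

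Only estimates that did not pass changed sign. With cardiomyocyte marker totals and library totals, in this order, the wild type log2 fold changes became 0.19 and 0.18 (Fabp3), 0.04 and 0.03 (Acad10), 0.03 and 0.04 (Acaa1a) and 0.09 and 0.09 (Acot13), and that of Cpt1a 0.003 on the first alone. In T497A they became 0.07 and 0.05 (Fabp3), 0.03 and 0.01 (Cpt1a), 0.09 and 0.05 (Acad10) and 0.07 and 0.04 (Acot13). The interaction became -0.02 and -0.05 for Acot13 and, with library totals, -0.02 for Acadl. Between genotypes after TAC library totals gave -0.05 for Fabp3, -0.03 for Acadl, -0.05 for Acad10 and -0.08 for Acaa1a, which had -0.001 with cardiomyocyte marker totals. Without 1 library, the ranges that crossed 0 were, in wild type, -0.10 to 0.05 (Fabp3), -0.25 to 0.02 (Acad10) and -0.29 to 0.05 (Acaa1a); in T497A, -0.14 to 0.06 (Fabp3), -0.18 to 0.03 (Cpt1a), -0.27 to 0.17 (Acad10), -0.004 to 0.15 (Acaa1a) and -0.86 to 0.05 (Ucp3); for the interaction, -0.13 to 0.08 (Fabp3) and -0.12 to 0.32 (Acad10); and between genotypes after TAC, -0.16 to 0.28 (Acad10) and -0.14 to 0.20 (Acaa1a). No paired analysis was possible because every title has the same number, so that the groups compared share fewer than 2 replicate numbers. Members at a few CPM, such as Acad10, Acot1 and Acsm5, have SEs of 0.27 to 0.42 for TAC against sham. Differences well above their SE could still miss the threshold. The interaction of Acsm5, 1.95 ± 0.57, did not pass (adjusted p = 0.113, edgeR's quasi-likelihood test).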
